A study of Mus musculus with 29 samples.

Results

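Cytoplasmic ribosomal protein genes encode the proteins that, with ribosomal RNA, build the small and the large subunit of the ribosome outside mitochondria. The genes were chosen by symbol: Rpl or Rps followed by a number and at most a short suffix, the stalk genes Rplp0, Rplp1 and Rplp2, and Rpsa. Of 89 mouse symbols in RefSeq that fit this rule, 84 were annotated as protein coding, and 83 of these had values among the 22779 gene IDs of the deposited matrix. The 83 comprised 77 canonical genes (46 of the large subunit, 31 of the small) and 6 paralogs (Rpl3l, Rpl7l1, Rpl10l, Rpl22l1, Rpl39l and Rps27l), which are diverged copies of a canonical gene.

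The study followed RNA of the alveolar septum, the wall between the air spaces of the distal lung, from before birth to the fourth week of life. Septa were cut by laser capture microdissection from frozen lungs of untreated wild type C57BL/6 mice of both sexes, and total RNA depleted of ribosomal RNA was sequenced in 29 libraries, 1 per animal, at 15 ages. Each age had 2 animals, except P28 with 1. The series' design text leaves E18.5 out of its time points, while the labels of 2 libraries give that age, and the labels were followed. The libraries were grouped by age into prenatal (E16.5 and E18.5, 4 libraries), postnatal saccular (P0.5 to P2.5, 8 libraries), early alveolar (P4 to P10, 8 libraries) and late alveolar (P13.5 to P28, 9 libraries). The values are FPKM, fragments assigned to a gene scaled by its transcript length and by the number of mapped fragments, and the read depth behind them is unknown.

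Ribosomal protein genes are transcribed in every cell, and growing cells spend a large share of their transcription and translation on them. In vertebrates most of their mRNAs start with a C followed by a run of pyrimidines, the terminal oligopyrimidine (TOP) tract, through which mTOR and Larp1 control how much of the mRNA is translated. Their mRNAs are short, and the genome holds many processed pseudogenes copied from them, so that short reads often match more than 1 place.

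Markers of type 2 cells, type 1 cells, endothelium, fibroblasts and macrophages were present in all 29 libraries. Heart muscle genes (Myh6, Tnnt2, Tnni3, Actc1 and Nppa) were present too, with a summed FPKM between 37.7 and 2227 in the prenatal libraries and between 6.34 and 447 after birth. Rpph1, the RNA of the RNase P enzyme, was the highest gene in all 29 libraries and took from 3.51% to 17.1% of the summed FPKM. An FPKM of exactly 0 can be a failed estimate in these files: among 8623 expressed protein-coding genes (median FPKM 5 or more), P19 pup d listed 578 at 0, P10 pup a 416 and P19 pup f 242, against 1 to 112 in the other libraries. These 3 are called the zero-rich libraries.

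The start of the transcript is shown for some of the genes described below and for Rpl27a, to set those with a TOP tract at the annotated start beside those without. Each window holds 30 bases, 10 before and 20 from the RefSeq start, on the build GRCm38.p6, and capitals mark a C within 5 bases of the start with the unbroken pyrimidines after it where these came to at least 5 bases.
Rpl15 (chr14:18270967-18270996, minus strand): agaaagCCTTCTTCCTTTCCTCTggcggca
Rpl27a (chr7:109519185-109519214, plus strand): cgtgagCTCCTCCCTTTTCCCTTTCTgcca
Rpl7a (chr2:26910797-26910826, plus strand): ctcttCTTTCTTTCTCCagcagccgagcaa
Rplp2 (chr7:141447641-141447670, plus strand): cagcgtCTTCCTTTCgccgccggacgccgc
Rpl22l1 (chr3:28805498-28805527, plus strand): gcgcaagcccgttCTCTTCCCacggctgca
Rps4x (chrX:102189372-102189401, minus strand): gctgggcggagcaacccaggctccagcgcg
Rps3a1 (chr3:86142649-86142678, minus strand): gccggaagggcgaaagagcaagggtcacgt
Rplp0 (chr5:115559457-115559486, plus strand): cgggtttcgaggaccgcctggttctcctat
Rpl7l1 (chr17:46782637-46782666, minus strand): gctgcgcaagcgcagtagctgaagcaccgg
The first 5 hold a tract, of 17 bases in Rpl15, 20 in Rpl27a, 12 in Rpl7a, 9 in Rplp2 and 8 in Rpl22l1, and the last 4 hold none in this window. RefSeq starts were at hand for 57 canonical genes, and 27 of them (47.4%) had a tract, against 21.5% of 17492 protein-coding genes. The motif CCGGAAG of ETS factors, sought on both strands from 250 bases before to 50 after the start, lay in 24 of the 57 canonical windows (42.1%), against 12.9% of all protein-coding genes. The YY1-type motif AAGATGGCG was in 3 (5.26%, against 2.14%) and TATAAA in 6 (10.5%, against 14.8%). These matches describe the annotated windows and say nothing of where transcripts began in these libraries.

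Levels differed widely among genes whose proteins enter the ribosome in near-equal number. The median of the 77 canonical genes was a mean FPKM of 139, 10 genes were above 500 and 7 below 20. Rps23, a small subunit protein at the decoding centre, had the highest mean FPKM (1931), and Rplp1 (983) and Rpl7 (895) were also among the highest. Rpl26 (1.28), Rpl30 (5.34), Rps27 (6.37) and Rpl10a (9.01) had the lowest mean FPKM. FPKM is scaled to length, so levels can be set side by side between genes, but only as far as reads could be assigned to them.

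**Figure D1:**
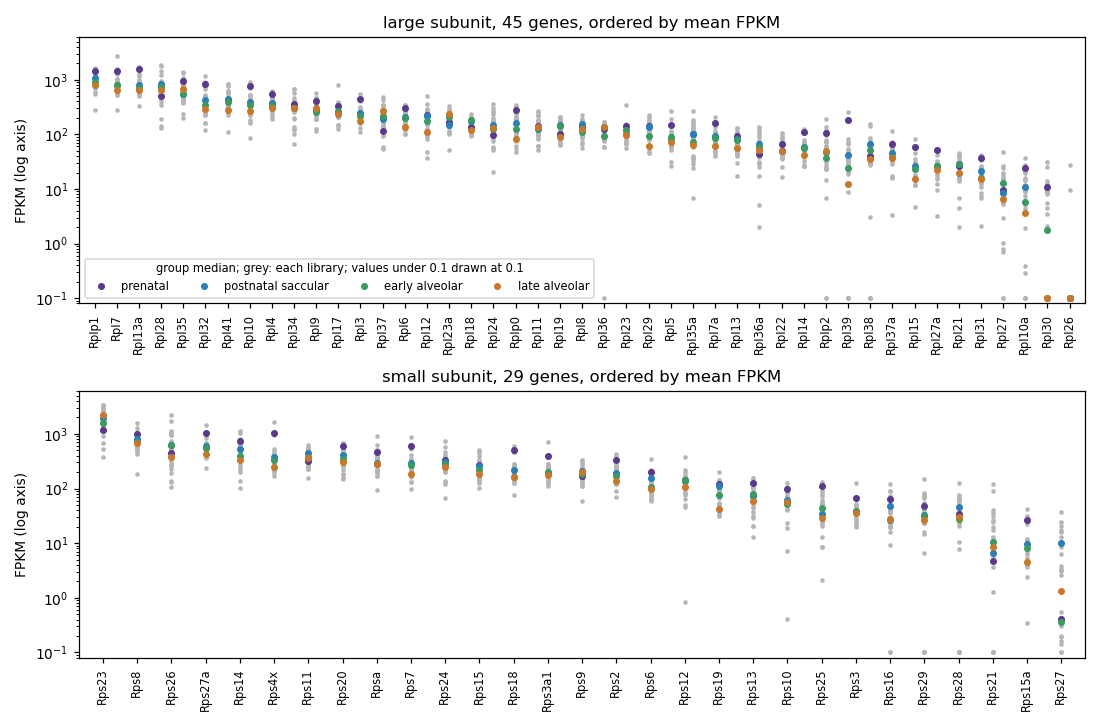
FPKM (log axis) of 45 canonical large subunit genes and 29 canonical small subunit genes, ordered by mean FPKM. Grey points are the 29 libraries and coloured points the medians of the 4 groups. Values under 0.1 are drawn at 0.1. Prenatal medians lie above the others for most genes, and the genes at the right end scatter down to 0.

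Such assignment is uncertain to unlike extents across the canonical genes. In the transcripts of GENCODE vM21, 76 of the 77 shared at least 1 window of 50 bases with another annotated gene, and the median canonical gene had 44.5% of its windows to itself. In 47 of the 77 under 50% of the windows were unique, while 8 genes had 75% or more to themselves. The share of all protein-coding genes with such a shared window is not given here. Rps27 had the lowest share, 1.35%, and Rpl7a shared windows with 120 annotated pseudogenes. Spearman's rho between mean FPKM and the share of unique windows was 0.06 across the 77 genes, which is a description across genes and not across samples. The genome also holds Rps4l, annotated as a transcribed pseudogene and so not a member, with group medians of FPKM from 7.69 to 12.6.

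The lowest genes switched between values near 0 and far higher ones from animal to animal. Rpl26, a large subunit protein that in human cells also binds p53 mRNA, lay under 1 FPKM in 27 of 29 libraries, at 27.4 in P7 pup c and at 9.66 in P28 pup c. Rps27 was at 37.8 FPKM in E18.5 embryo 4 and at 0.364 to 0.419 in the other 3 prenatal libraries. Rpl30 lay under 1 FPKM in 15 of 29 libraries and reached 30.6 in E16.5 embryo 2. At P10 and P13.5 Rps27 was high in 1 animal and under 1 FPKM in the other, and at P23 so was Rpl30 (25.5 FPKM in pup f), so the group values of these 3 genes are not read as levels of the mRNA.

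Of 2233 values of canonical genes, 40 were exactly 0, in 12 genes and in 12 libraries. P10 pup a had 8 canonical genes at 0, P19 pup d 7, P19 pup f 6 and P1.5 pup d 4, together 25 of the 40. E16.5 embryo 2 and both P13.5 libraries had 3 each, P28 pup c 2, and 4 libraries had 1. Rps28 was listed at 0 in 8 libraries, Rpl39 and Rps21 in 6, Rpl38 and Rpl10a in 4, Rps29 in 3, and Rpl27, Rplp2 and Rps16 in 2. Among the paralogs Rps27l was at 0 in 9 libraries. The median transcript of the 12 canonical genes with a 0 was 407.5 bases long, against 775 for the 65 without one.

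**Figure D2:**
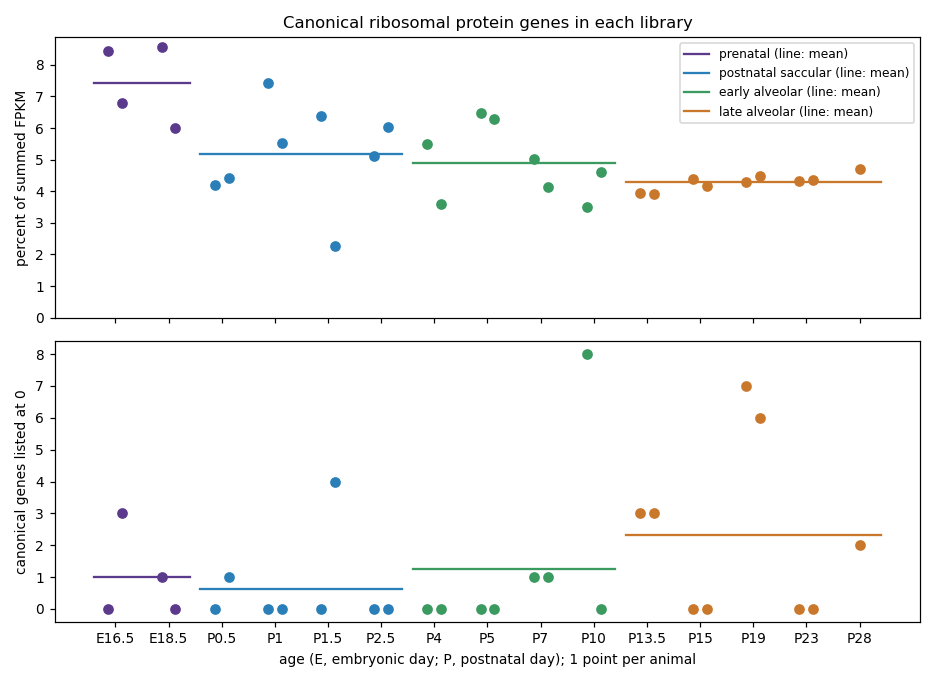
For each library, by age, the summed FPKM of the 77 canonical genes as a percent of the summed FPKM of all genes (top) and the number of canonical genes listed at 0 (bottom). Points are animals and lines are group means. The share falls from a prenatal mean of 7.44% to a late alveolar mean of 4.28%, and P1.5 pup d has the lowest share, 2.26%.

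As a whole the canonical genes took the largest share of the summed FPKM before birth. The 4 prenatal libraries stood at 8.42% (E16.5 embryo 9), 6.79% (E16.5 embryo 2), 8.56% (E18.5 embryo 4) and 5.99% (E18.5 embryo 3). The postnatal saccular libraries ran from 2.26% through a median of 5.33% to 7.42%. The early alveolar libraries ran from 3.52% through 4.81% to 6.46%, and the late alveolar ones from 3.91% through 4.33% to 4.71%. The means were 7.44% ± 1.26 (SD, n = 4), 5.17% ± 1.58 (SD, n = 8), 4.89% ± 1.14 (SD, n = 8) and 4.28% ± 0.25 (SD, n = 9) in that order. The late alveolar libraries all lay below the prenatal ones, while the postnatal saccular and early alveolar ranges each overlapped the prenatal one, and no test was run on this sum. In septa, fewer cells of a type and less RNA per cell cannot be told apart from these values.

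Animals of the same age differed in the summed FPKM of the canonical genes by a median factor of 1.26 over 14 ages. The factor was 3.25 at P1.5, where pup d had 7178 and pup e 23318, and 1.51 at P1 and 1.55 at P4. At the 4 late alveolar ages with 2 animals it was between 1.01 and 1.14. The late alveolar animals thus lay close together, while at the 10 earlier ages the factor ranged from 1.09 to 3.25.

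The canonical genes moved together from library to library. Each of the 76 that passed the filter on low values (FPKM 1 or more in 4 or more libraries) was set beside the median log2(FPKM + 1) of the other 75. Spearman's rho over the 29 libraries had a median of 0.65, and 62 of 76 genes reached 0.5 or more. Rpl4 was among the closest to the rest (0.85), and Rps27 was the one gene below 0 (-0.19). Of the paralogs Rpl7l1 had a rho of 0.08 and Rpl22l1 of 0.25. These are descriptions, since all genes of a library share its depth and scaling.

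**Figure D3:**
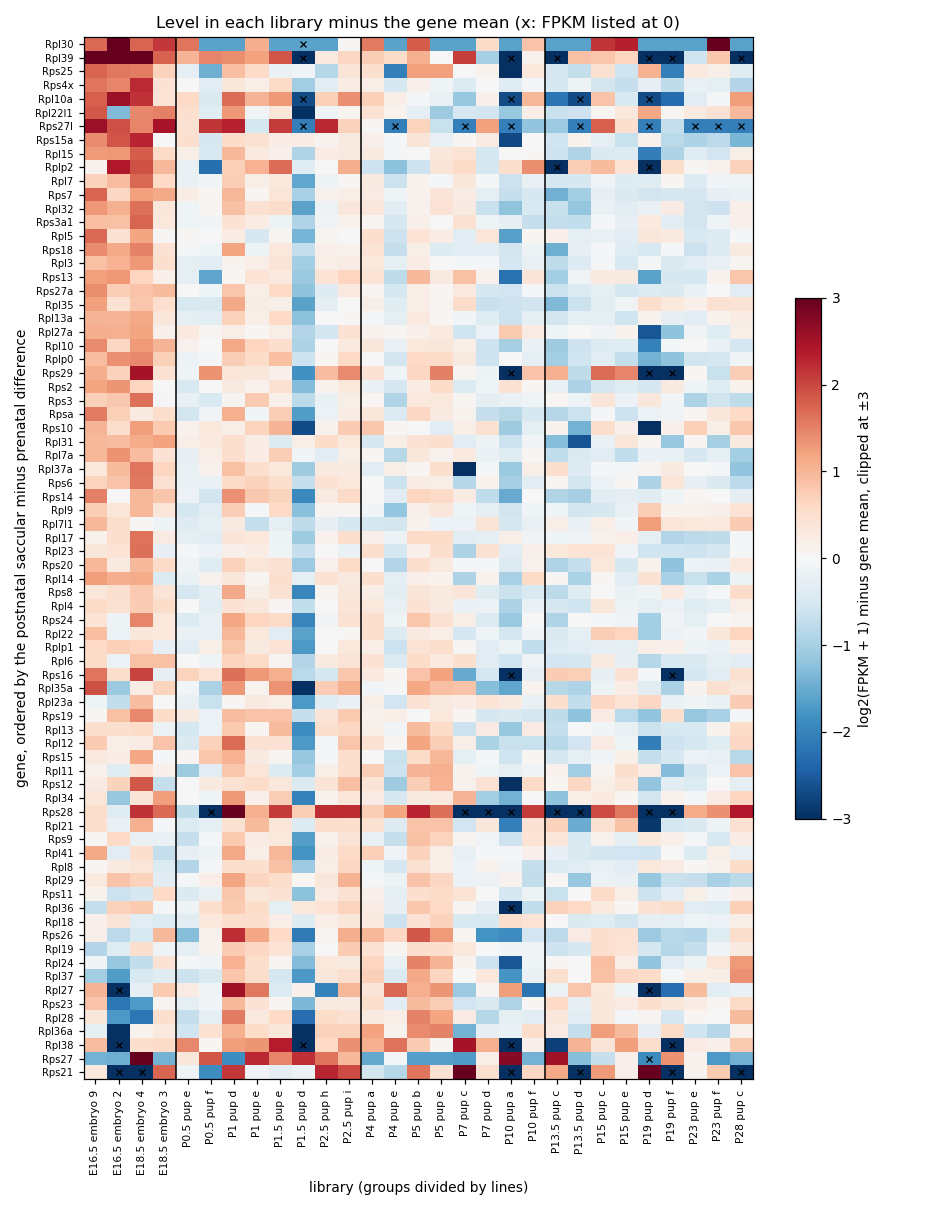
log2(FPKM + 1) of 76 of the tested genes in the 29 libraries, each gene minus its own mean, red for above and blue for below, clipped at 3 in either direction. Crosses mark an FPKM of 0. Rows are ordered by the postnatal saccular minus prenatal difference, vertical lines divide the groups, and most of the 60 rows with a negative difference are red in all 4 prenatal libraries. P1.5 pup d is blue in most rows.

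More members passed the test between the prenatal and the postnatal saccular group, here called birth, than at either later step. Of the 79 genes tested, 19 fell from the prenatal to the postnatal saccular group and 0 rose in limma's moderated test with Benjamini-Hochberg adjustment over 14616 genes, where 6.81% of all genes fell and 9.11% rose. The difference in log2(FPKM + 1) was negative for 63 of the 79, with a median of -0.68 against 0.00 for all genes tested. At an unadjusted p under 0.05 the count was 35 of 79 (44.3%), against 28.9% of all genes. The small subunit had 9 genes lower of 31 (median -0.72) and the large subunit 9 of 45 (median -0.57), and the difference between subunits was not tested. The count moved with single libraries: without E16.5 embryo 9, 7 genes fell, without E18.5 embryo 4, 10, without E16.5 embryo 2, 11, and without P1.5 pup d, 11. When the prenatal group held only the E18.5 libraries, 4 genes fell, Rps4x, Rpl3, Rpl7 and Rps3a1. The median difference was then -0.76, against 0.05 for all genes tested. The shares of all genes that fell in these refits are not given here, so their counts cannot be read against such a share.

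**Figure D4:**
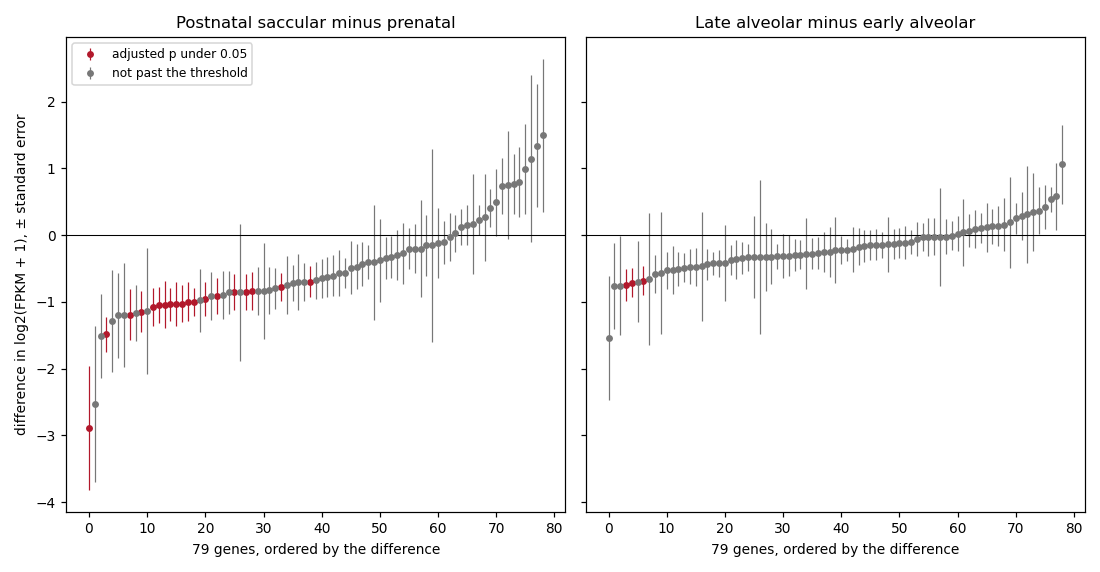
Difference in log2(FPKM + 1) between adjacent groups for the 79 genes, each ordered by its size, with the standard error of the limma fit as bars. Red points passed an adjusted p of 0.05: 19 genes on the left (postnatal saccular minus prenatal), all below 0, and 3 on the right (late alveolar minus early alveolar), all below 0.

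Rps4x, an X-linked small subunit protein (chrX:102184941-102189391, GRCm38.p6), fell most clearly. Its FPKM was 1085 and 976 in the E16.5 libraries and 1679 and 479 in the E18.5 libraries, and ran from 171 through a median of 377 to 530 in the 8 postnatal saccular ones. Only E18.5 embryo 3 lay within the postnatal range. The difference was -1.49 on the log2 scale (SE 0.26, adjusted p = 2.1e-04, limma), and it stayed between -1.82 and -1.22 with each library left out in turn.

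Rpl3, a large subunit protein near the peptidyl transferase centre (chr15:80077781-80083406), had an FPKM of 413 and 459 at E16.5 and 554 and 313 at E18.5. The postnatal saccular libraries ran from 109 through 246 to 290, so that the groups did not overlap. The difference was -0.996 (SE 0.21, adjusted p = 0.00137, limma). Of the 79 genes 5 had no overlap in this direction (Rpl3, Rpl4, Rpl30 and Rpl31 among them) and 0 in the other, where 4.52% and 5.55% of all genes tested had none.

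Rps3a1 and Rps7, both of the small subunit, fell by like amounts. Rps3a1 stood at 388, 385, 699 and 258 FPKM before birth and ran from 110 through 194 to 282 in the postnatal saccular libraries, a difference of -1.04 (SE 0.25, adjusted p = 0.00395, limma). Rps7 stood at 884, 404, 624 and 582 FPKM before birth and ran from 134 through 297 to 531 after it, a difference of -1.05 (SE 0.27, adjusted p = 0.00704, limma). For Rps3a1 the lowest prenatal library, E18.5 embryo 3, lay within the postnatal range, and for Rps7 E16.5 embryo 2 did.

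Over the 8 canonical genes with at least 75% unique windows, 2 fell and 7 had a negative difference, with a median of -0.60, against -0.59 for the 44 genes with 25% to 75% and -0.71 for the 24 under 25%. The longest transcripts counted among the 8 were those of Rps20 (3706 bases), Rps3 (1908) and Rps24 (1613), against a canonical median of 729. Whether septa hold these transcripts was not tested, so their unique share may not be that of the mRNA sequenced. Genes with a TOP tract at the annotated start had a median of -0.61 (5 of 27 fell) and those without one -0.57 (6 of 29 fell).

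Others that fell were Rpl5, Rpl7, Rpl7a, Rpl13a, Rpl15, Rpl30, Rpl32 and Rplp0 of the large subunit, Rps2, Rps3, Rps18 and Rps27a of the small, and the paralog Rpl7l1, with differences between -0.70 and -1.15 apart from Rpl30 (-2.89, SE 0.93, adjusted p = 0.0316, limma). Rps27a encodes its protein fused to ubiquitin, and Rpl5 a protein that with Rpl11 binds the p53 regulator Mdm2. The Rpl30 call rests on values near 0: its postnatal saccular libraries ran from 0 through a median of 0.000248 to 8.33 FPKM, and with a pseudocount of 0.1 its adjusted p was 0.0644 (limma).

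The gene of highest level did not follow the others. Rps23 stood at 3116 and 384 FPKM in the E16.5 libraries and at 537 and 1831 in the E18.5 ones, and ran from 684 through 1945 to 3396 in the postnatal saccular libraries. The difference was 0.77 (SE 0.45, adjusted p = 0.267, limma) with each prenatal age split between a high and a low animal. Rpl36a (38.5, 2.01, 50.6 and 58.0 FPKM) and the paralog Rpl22l1 (327, 35.03, 246 and 259 FPKM) were low in E16.5 embryo 2 alone among the prenatal libraries.

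To set each gene against the group, the median log2(FPKM + 1) of the canonical genes in each library was subtracted before the fit. Relative to that median 8 canonical genes fell at birth (among them Rps4x, Rpl3, Rpl7, Rpl15, Rps3a1, Rps7 and Rpl30) and 2 rose (Rpl37 and Rpl19), where 1.22% of all genes fell and 9.36% rose. The subtraction moved the median difference of all genes to 0.31 and left that of the 76 canonical genes at -0.32, with 50 of them negative, so the relative differences are not centred on the canonical genes and lie toward lower values. The relative difference was -1.17 for Rps4x (SE 0.26, adjusted p = 0.00244, limma) and -0.68 for Rpl3 (SE 0.20, adjusted p = 0.0251, limma). With a pseudocount of 0.1 the relative call of Rpl30 was lost (adjusted p = 0.0800, limma). Without E18.5 embryo 4, 1 gene was lower, without either E16.5 library 2, and without P2.5 pup h or pup i 4. Without E18.5 embryo 3, 7 genes were higher, and without E16.5 embryo 2 none.

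Rpl37, a zinc-binding large subunit protein, had its lowest group median before birth, with libraries at 92.8, 58.4, 137 and 148 FPKM. The postnatal saccular libraries ran from 56.8 through 191 to 340, the early alveolar from 54.4 through 212 to 417 and the late alveolar from 186 through 266 to 489. The late alveolar libraries lay above all 4 prenatal ones. Relative to the group it rose by 1.05 at birth (SE 0.30, adjusted p = 0.0212, limma), while its own difference was 0.74 (SE 0.42, adjusted p = 0.251). Rpl19, also of the large subunit, stood at 67.1, 95.8, 173 and 111 FPKM before birth and ran from 62.6 through 148 to 211 after it. Relative to the group it rose by 0.72 (SE 0.22, adjusted p = 0.0293, limma). Between E16.5 and E18.5 the difference was 0.94 for Rpl37 (SE 0.45, adjusted p = 0.291, limma) and 0.78 for Rpl19 (SE 0.36, adjusted p = 0.265, limma). With only the E18.5 libraries as the prenatal group, the difference of Rpl37 at birth was 0.26. The relative fit was not run with that group, so it cannot place these relative rises after E18.5.

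**Figure D5:**
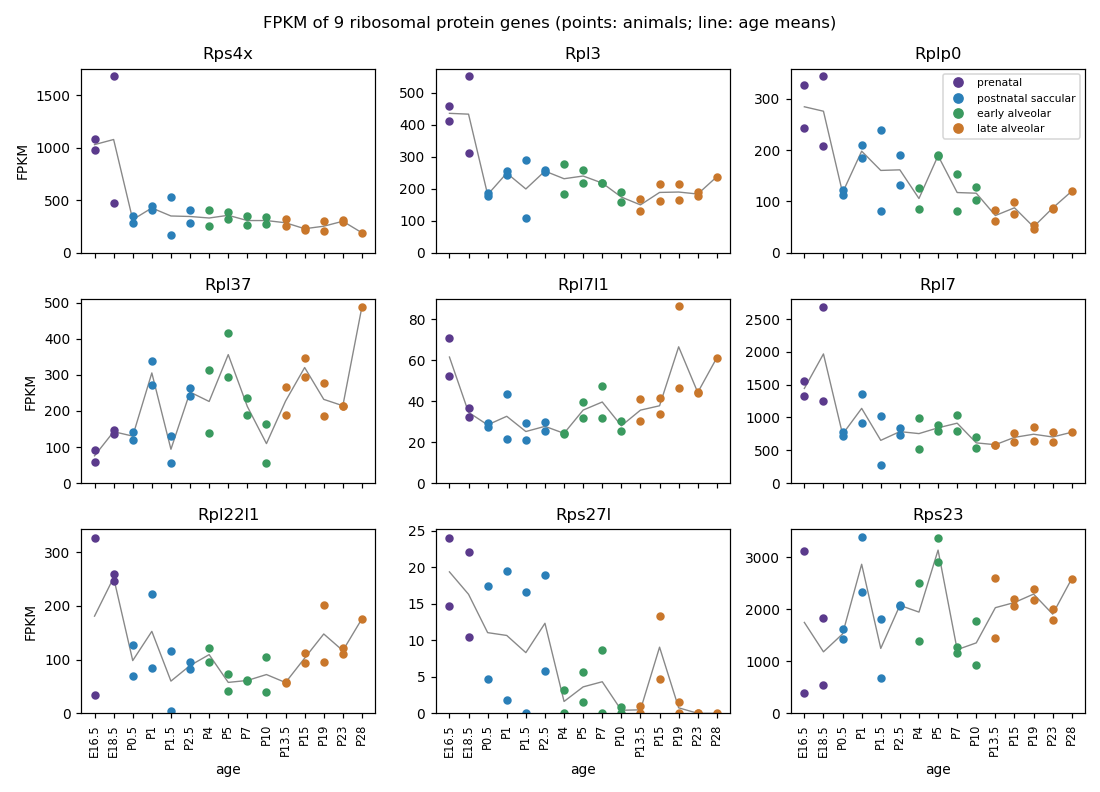
FPKM of 9 ribosomal protein genes by age. Points are animals, coloured by group, and the grey line joins the means of the ages. Rps4x, Rpl3, Rpl7 and Rplp0 have their highest age means at E16.5 and E18.5, the late alveolar libraries of Rpl37 lie above its prenatal ones, Rpl7l1 has its lowest library in the postnatal saccular group, and Rps27l is at 0 in 9 of 29 libraries.

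Between E16.5 and E18.5, 0 of 79 genes passed the test in either direction (2.52% of all genes rose and 2% fell), and 6 (7.59%) had an unadjusted p under 0.05, against 17.0% of all genes. The median difference was 0.12 on the log2 scale, against -0.10 for all genes. Heart muscle genes fell in 3 of 5 at this step, from a summed FPKM of 1097 and 2227 at E16.5 to 37.7 and 108 at E18.5, and proliferation genes in 3 of 10. Of 5 markers each, 4 of type 2 cells, 4 of type 1 cells, 3 of endothelium and 1 of macrophages rose. Of 5 fibroblast markers 3 fell and 1 rose. The part of any of these lists in the members' values was not tested. With 2 animals at each age and a mean share of 7.61% and 7.27%, the animals of 1 age were farther apart than the ages. Leaving out E16.5 embryo 9 gave 1 gene higher at E18.5 (Rpl36a), and leaving out E18.5 embryo 3 gave 1 (Rpl17), in fits where the lone animal is assumed to vary like the other ages.

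At the step into the early alveolar group 0 of 79 genes rose and 0 fell, where 0.527% of all genes rose and 0.937% fell. The median difference was -0.14 against -0.03 for all genes, 3 genes (3.80%) had an unadjusted p under 0.05 against 13.1% of all genes, and the smallest adjusted p was 0.203 (limma). No gene had groups without overlap, where 0.171% of all genes did upward and 0.301% downward. Relative to the canonical median 0 genes passed in either direction as well, where 0.0889% of all genes rose and 0.0753% fell, and 2 canonical genes (2.63%) had an unadjusted p under 0.05, against 8.72% of all genes.

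At the step from early to late alveolar 3 of 79 genes fell and 0 rose, where 7.47% of all genes fell and 3.89% rose. The share of members that fell, 3.80%, lay below that of all genes. The median difference was -0.23 against -0.09 for all genes tested, and 7 members (8.86%) had an unadjusted p under 0.05, against 24.4% of all genes. Again 0 members had groups without overlap, where 0.39% of all genes did upward and 0.958% downward.

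Rplp0, the scaffold of the ribosomal stalk and a frequent reference gene in qPCR, fell at this step and at birth. It stood at 242, 327, 344 and 208 FPKM before birth, ran from 81.9 through 159 to 239 in the postnatal saccular libraries, from 81.9 through 127 to 191 in the early alveolar and from 46.7 through 83.1 to 120 in the late alveolar ones. The difference was -0.86 at birth (SE 0.27, adjusted p = 0.0278, limma) and -0.71 from early to late alveolar (SE 0.21, adjusted p = 0.0270, limma). Relative to the canonical median it was the 1 canonical gene that fell at the late step (-0.50, SE 0.16, adjusted p = 0.0496, limma), where 2.37% of all genes fell and 3.75% rose. Leaving out any of 23 libraries in turn ended that relative call.

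Rpl29 and Rpl15, both of the large subunit, were the other genes that fell late. Rpl29 ran from 59.3 through 93.9 to 183 FPKM in the early and from 45.0 through 62.1 to 103 in the late alveolar libraries (-0.68, SE 0.22, adjusted p = 0.0387, limma). Rpl15 ran from 15.9 through 23.7 to 31.1 FPKM and then from 4.71 through 15.3 to 26.4 (-0.74, SE 0.24, adjusted p = 0.0414, limma). All 3 late calls overlapped between groups. The count was 0 without P19 pup d, without P19 pup f, without P5 pup b, without P5 pup e and when all 3 zero-rich libraries were dropped, and 1 without P4 pup a, P7 pup c, P10 pup a, P13.5 pup d or P23 pup f.

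Rplp1 and Rplp2 are the acidic stalk proteins that Rplp0 holds. Rplp1 stood at 1407, 1536, 1461 and 785 FPKM before birth and ran from 280 through 1083 to 1654 in the postnatal saccular libraries, a difference of -0.44 (SE 0.33, adjusted p = 0.401, limma). Rplp2 stood at 39.1, 195, 139 and 72.0 FPKM and then ran from 6.75 through 48.0 to 118, a difference of -1.14 (SE 0.94, adjusted p = 0.459, limma). The mean FPKM over all libraries was 983 for Rplp1 and 54.7 for Rplp2, and neither passed the test.

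Over the whole time course 31 of 79 genes (39.2%) varied with age in limma's test of a smooth curve, where 30.7% of all genes did. The late alveolar mean was below the prenatal mean in 30 of the 31, Rpl37 being the exception, and in 69 of the 79 tested. This direction was not counted over all genes, so these counts have no share to be read against. Rpl7a had the smallest adjusted p (5.5e-05): it stood at 165, 210, 157 and 111 FPKM before birth and had medians of 93.5, 85.6 and 60.4 in the 3 later groups. The curve used the same libraries as the stage comparisons, and 17 of the 31 were among those that fell at birth. Without P1.5 pup d the count was 42, and without either E16.5 library it was 23. The share of all genes in these refits is not given here.

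The paralogs fell into those that were expressed and those that were not. Rpl10l, a testis gene that stands in for Rpl10 in male germ cells, was listed at 0 in 29 of 29 libraries. Rpl3l, the striated muscle copy of Rpl3, had a value in 1 library (0.339 FPKM), and Rpl39l, a testis copy of Rpl39, in 1 (0.379 FPKM). These 3 and Rpl26 did not pass the filter on low values.

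Rpl7l1 is a relative of Rpl7, and the courses of the pair are given side by side with no test between them. Rpl7l1 stood at 70.7 and 52.4 FPKM at E16.5 and 36.8 and 32.2 at E18.5. It ran from 20.8 through 28.4 to 43.7 in the postnatal saccular, from 24.1 through 31.1 to 47.4 in the early alveolar and from 30.4 through 43.8 to 86.7 in the late alveolar libraries. It fell at birth (-0.70, SE 0.23, adjusted p = 0.0394, limma). With only the E18.5 libraries as the prenatal group this call was lost (-0.30, adjusted p = 0.621, limma). Between E16.5 and E18.5 its difference was -0.80 (SE 0.32, adjusted p = 0.184, limma). The late difference of Rpl7l1 was 0.54 (SE 0.19, adjusted p = 0.0581, limma). Relative to the canonical median it rose at the late step (0.75, SE 0.23, adjusted p = 0.0481, limma), a call that 20 of 29 single libraries ended when left out. Rpl7, which fell at birth too, stood at 1323, 1563, 2689 and 1249 FPKM before birth, with medians of 806, 796 and 636 in the later groups.

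Rpl22l1 and Rps27l are the other expressed paralogs. Rpl22l1, which the Rpl22 protein is known to repress in the mouse, ran from 3.56 FPKM in P1.5 pup d through a median of 89.8 to 222 in the postnatal saccular libraries, a difference from the prenatal group of -1.20 (SE 0.64, adjusted p = 0.211, limma). Without E16.5 embryo 2, its low prenatal library, the difference was -1.94 (adjusted p = 0.0481, limma). Its late alveolar median was 111. Rpl22 had group medians of 66.6, 49.2, 48.6 and 49.5 FPKM, with no step past the test.

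Rpl10 and Rpl39 are the canonical counterparts of paralogs at or near 0. Rpl10, near the peptidyl transferase centre, stood at 922, 531, 837 and 693 FPKM before birth and ran from 181 through 398 to 763 in the postnatal saccular libraries (-0.86, adjusted p = 0.0729, limma). It varied with age (adjusted p = 0.00127, limma). Rpl39, one of the smallest ribosomal proteins, stood at 187, 182, 259 and 67.6 FPKM and ran from 0 through 42.3 to 72.5 after birth (-2.53, SE 1.17, adjusted p = 0.146, limma). It too varied with age (adjusted p = 0.00968, limma), and its 6 zeros all lay in postnatal libraries. These were P1.5 pup d, P13.5 pup c, P28 pup c and the 3 zero-rich libraries, each of which lists other canonical genes at 0 as well. The zeros may thus be failed estimates.

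Rps27l, a p53 target gene that resembles Rps27, stood at 24.0, 14.7, 10.5 and 22.1 FPKM before birth. It had medians of 11.2, 1.23 and 0 in the later groups, and the 9 libraries listed at 0 began at P1.5. It varied with age (adjusted p = 0.00298, limma), while no single step passed. Of its 9 zeros 6 fall in libraries that list canonical genes at 0 as well, and 3, in P4 pup e and both P23 libraries, do not. Rpl36al, a paralog outside the symbol rule, had group medians of FPKM from 91.7 to 121.

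Among other genes of the translation machinery some fell at birth, where 6.81% of all genes fell and 9.11% rose. Of 15 translation genes with TOP mRNAs or close roles, 5 fell and 0 rose (median -0.67): Eif4b (-0.79, SE 0.12, adjusted p = 6.3e-05), Pabpc1 (-1.03), Npm1 (-1.30), Eif3e (-1.24) and Nap1l1 (-0.80), all from limma. Eif4b helps the helicase that opens mRNA for scanning, Pabpc1 binds poly(A) tails and Npm1 carries ribosomal particles through the nucleolus. Of 23 ribosome assembly genes 1 fell (Wdr12) and 1 rose (Ubtf), with a median of -0.21. None of 14 regulators such as Myc, Mtor and Larp1 passed at birth (median 0.10). Of 77 mitochondrial ribosomal protein genes 4 fell (median -0.32), and of 74 respiratory chain genes 8 fell (median -0.60). At the late step, where 7.47% of all genes fell, 0 of the 15 translation genes passed, 2 of 6 snoRNA host genes fell (Snhg12 and Snhg5), and Mycn and Nop58 fell.

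Several other measures moved at birth, and some at the late step. At the late step members themselves passed the test less often than all genes (3.80% fell, against 7.47%). Proliferation genes fell at birth in 8 of 10 (median -2.12), from a median summed FPKM of 689 before birth to 140 in the postnatal saccular group, and 7 of 10 fell at the late step. Of 5 markers each, 3 of type 2 cells, 3 of type 1 cells and 3 of endothelium rose at birth, as did 1 of 5 of macrophages, 2 of 6 of lymphocytes and 1 of 3 of airway cells. Between E16.5 and E18.5, 4, 4 and 3 of the 5 markers of the first 3 lists rose, where 2.52% of all genes did. At E16.5 the type 2 markers had a summed FPKM of 5368 and 2172. Their E18.5 sums (13501 and 16649) lay within the postnatal saccular range, 8355 to 21534. For type 1 cells the E18.5 sums (491 and 579) lay below that range (672 to 1245). For endothelium 551 lay below and 633 within it (569 to 936). In the other direction, 2 of 5 heart muscle genes fell (median -1.62), with a median summed FPKM of 603 before and 79.1 after birth, 1 of 3 erythroid genes fell (median -1.34), with 75.7 and 12.6, and 1 of 5 fibroblast genes fell. The prenatal heart muscle median lies between sums of 1097 and 2227 at E16.5 and of 37.7 and 108 at E18.5. The E18.5 sums lay within the postnatal saccular range, 21.7 to 447. At the late step 3 of 5 fibroblast genes fell and 1 rose. The nuclear RNAs Malat1, Neat1, Meg3 and Kcnq1ot1 had a summed FPKM of 3766 to 9711 before birth and 5000 to 11534 in the postnatal saccular group, with P1.5 pup d highest and E18.5 embryo 3 the highest of the prenatal libraries. Of these 4 genes 1 rose and 1 fell at birth, and 1 rose and 1 fell at the late step, so their sum joins genes that moved in opposite directions. Over the 29 libraries Spearman's rho with the summed canonical FPKM was -0.74 for these nuclear RNAs, 0.92 for the translation genes, 0.74 for the respiratory chain genes and 0.39 for the proliferation genes, as descriptions. The part of these cell markers, of proliferation and of these nuclear RNAs in the lower ribosomal protein values after birth was not tested.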

How the data were processed

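RNA of laser-captured alveolar septa was sequenced in 29 libraries. By the submitters' notes stranded total RNA libraries depleted of ribosomal RNA were processed on mm10, where STAR 2.5.1 and Cufflinks 2.2.1 are named, and the authors deposited the resulting FPKM per gene. The annotation and the treatment of reads with several matches are not given in the sources used here, and depth is unknown, so the spread between animals stands for the error. The labels name each library's animal, so replicates are animals.

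The matrix holds 24486 lines for 22779 gene IDs. For IDs on several lines, 6 members among them, the line of highest mean FPKM was taken. Symbols, starts and types came from RefSeq (GRCm38.p6, the same assembly as mm10). From the FPKM as deposited, log2(FPKM + 1) was computed, and 14616 genes with FPKM 1 or more in 4 or more libraries were tested. The 4 groups were compared in one fit with limma 3.58.1 in R 4.3.3, all p adjusted over all genes with Benjamini-Hochberg and a threshold of 0.05. Fold differences are on this log2 scale and understate changes of low genes. The age test was an F test of a natural spline (3 df) over the log2 of days from conception, with birth at day 19, and the contrast of both prenatal ages came from a fit of 15 ages. The fit relative to the ribosomal protein genes used log2 values minus the library's median of 76 canonical genes. Shared sequence was counted in windows of 50 bases over all GENCODE vM21 transcripts, from the shortest principal transcript of each gene. The fits were tested on simulated data in which 200 of 14616 genes changed by 1 on the log2 scale. Of these 200, 46 were recovered at birth, 83 at the early alveolar step and 101 at the late step, with 4, 7 and 5 false calls. A gene that did not pass may therefore still have changed by such an amount. The number of changed genes was set, so these shares need not hold for the data. Figures were drawn with matplotlib 3.10.9, and summaries were made in Python 3.11.15 with pandas 2.3.3, scipy 1.17.1 and numpy 2.4.6.

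Members, lists and the choice of named genes were made with earlier results of these data known. Named genes are the paralogs and their counterparts, the 4 highest and the 4 lowest canonical genes, up to 4 genes with the smallest p in each direction of a stage comparison and 3 in the relative fit, genes at 0 in 2 or more libraries, the stalk genes, and up to 3 genes of a list. Rpl4, Rpl7a, Rpl27a, Rpl31 and the remaining genes that fell were named after their values were seen. Alternatives were other pseudocounts, filters, scalings, groupings and leaving out libraries. Leaving out P1.5 pup d with the 3 zero-rich libraries (P10 pup a, P19 pups d and f), scaling without Rpph1, and leaving out single prenatal libraries for E18.5 against E16.5, were chosen after seeing the data. No protein sequences were used here, and some genes are not reported by name.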

Additional observations from a re-analysis of the deposited data

Results flagged for a closer look

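For 32 named genes and 4 library measures, the highest or lowest library of each group was compared with its nearest neighbour by Dixon's criterion, 144 groups in all. It marked 13 (9.03%). Chance marks about 1 in 20 only where values are independent and normally distributed. FPKM and counts of zeros were used here untransformed, and some genes were named for low values or zeros. The share marked is therefore not read as an excess over chance. Among the library measures, the number of canonical ribosomal protein genes at 0 stood apart in P1.5 pup d (4, next 1) and in P10 pup a (8, next 1).

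The marked genes were mainly those with values near 0. Rpl26 stood apart in P7 pup c (27.4 FPKM, next 0.00134) and in P28 pup c (9.66, next 0.0013). Rpl30 stood apart in E16.5 embryo 2 (30.6, next 12.2). Rps27 stood apart in E18.5 embryo 4 (37.8, next 0.419), in P10 pup a (23.9, next 3.32) and in P13.5 pup c (21.0, next 8.61). Rps21 did so in P7 pup c (122.6, next 24.3) and in P19 pup d (88.7, next 19.4).

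Rplp2 in P10 pup f (97.6 FPKM, next 53.7), Rps27l in P15 pup c (13.3, next 4.75) and Rpl7l1 in P1 pup d (43.7, next 29.9) were the remaining ones.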

How the results depend on the processing

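The fall of ribosomal protein genes at birth kept its direction under 13 alternatives, with 4 to 25 genes lower against 19 and a median difference between -0.76 and -0.45. It was 4 when only the E18.5 libraries were the prenatal group and 7 to 24 when each library was left out in turn. A single gene was higher at birth with quantile normalization (1, Rps23) and without P1.5 pup d and the 3 zero-rich libraries (1, Rpl37), the latter chosen after seeing the data. The 3 genes lower at the late step became 1 with no filter, with median ratio scaling and with only the groups compared, 0 without the 3 zero-rich libraries, 0 without these and P1.5 pup d, and 0 to 3 with each library left out. At that step 1 gene, Rpl7l1, was higher with median ratio scaling, quantile normalization and the fit of 15 ages, and 0 to 1 with each library left out. Relative to the canonical median, leaving out each library gave 1 to 10 genes lower (8) and 0 to 7 higher (2) at birth and 0 to 1 lower (1) at the late step, which was 0 without the 3 zero-rich libraries. The age count was 28 to 40 under the alternatives and 23 to 42 with each library left out. The counts of 0 for the early alveolar step stayed at 0 under 12 alternatives and with each of 29 libraries left out. Those for E18.5 against E16.5 stayed at 0 under 4 alternatives. With each of the 4 prenatal libraries left out, a choice made after seeing the data in which the lone animal of an age is assumed to vary like the other ages, the count was 0 lower and 0 to 1 higher (1 without E16.5 embryo 9, Rpl36a, and without E18.5 embryo 3, Rpl17). Among differences of single genes, Rplp1 at birth turned to 0.15 with quantile normalization. The cause of these changes was not tested, and the shares of all genes that passed under the alternatives are not given here.

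No paired analysis was possible because the letters of the animals name pups within an age and pair none across ages. Depth is unknown, so values near 0 cannot be told from failed estimates, and genes that share sequence with pseudogenes carry an error that the spread between animals does not show.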
